A study of Mus musculus with 12 samples.

Results

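The 54 genes described here drive or carry out the G2 phase and mitosis, the last steps of the cell cycle in which a cell with replicated chromosomes divides. They were taken by symbol from a list of mitosis and G2/M genes, by a rule that uses no measured value, although the list itself was drawn up with earlier results of these data known. They are 54 of the 55335 genes quantified in each library. All 54 passed the filter on low counts and belonged to the 14008 genes tested. For the description they were sorted by role into cyclins, CDK1 and mitotic entry (8 genes), mitotic kinases with the chromosomal passenger complex (6), the spindle checkpoint (4), anaphase (4), the centromere and kinetochore (6), kinesins (5), spindle proteins (9), condensin and chromosome structure (8) and cytokinesis (4). They lie on 18 chromosomes.

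RNA was measured in BMDCs, dendritic cells grown from C57BL/6 mouse bone marrow with GM-CSF for 6 days, in 4 groups of 3 replicates. WT cells carried the tamoxifen-inducible recombinase CreER and intact Ctcf alleles. KO cells carried CreER and loxP-flanked Ctcf alleles (CreER;CTCF fl/fl), which recombine when 4-OHT reaches CreER. WT and KO received no LPS, and WTL and KOL were the same kinds of cells given LPS at 100 ng/ml for 3 h. CreER was expressed from the ubiquitous Rosa26 locus and 4-OHT entered the culture at its start, so that the promoter did not limit recombination to dendritic cells. The sources used here do not state plainly whether the WT cultures received 4-OHT, nor whether replicates came from separate mice, and p-values therefore measure the spread between these libraries. All groups shared the CreER transgene, the GM-CSF culture and selection for CD11c. CTCF is a DNA-binding protein that holds chromatin loops together with cohesin, and LPS is a bacterial product that activates dendritic cells through TLR4.

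As background, entry into mitosis is driven by the kinase CDK1 bound to B-type cyclins, which CDC25 phosphatases switch on. Condensin then compacts the chromosomes, kinesins and other spindle proteins build the spindle, and kinetochores attach chromosomes to it. The checkpoint proteins hold back the anaphase-promoting complex until all chromosomes are attached, after which securin is destroyed, separase cuts cohesin and the cell divides. The genes for these proteins are transcribed together, late in the cycle. Their promoters commonly hold a cell cycle homology region (CHR), bound by the MuvB complex, which represses as part of DREAM in resting cells and activates with B-MYB and FOXM1 in dividing ones, and CCAAT boxes bound by NF-Y. In cultures of bone marrow with GM-CSF, precursors divide as they differentiate into dendritic cells, and mature cells leave the cycle. In bulk RNA, fewer cells in G2 or mitosis and less of these RNAs per cell cannot be told apart.

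Of the 54 members, 46 were matched by symbol to a promoter of RefSeq (mouse build GRCm38.p6), from 250 bases before to 50 bases after the transcription start, and the other 8 were Aurkb, Ccna2, Cdc25c, Cdca2, Dlgap5, Incenp, Smc4 and Tpx2. The letters searched, on both strands, were, for the CHR, either TTTGAA or the variant TTCGAA, for the CCAAT box CCAAT itself, and for E2F any of the forms TTCCCGC, then TTCGCGC, also TTGCCGC, and lastly TTGGCGC, and none of these contains another. The CHR letters stood in 37 of 46 member promoters (80.4%), compared with 14.3% of the 10112 promoters of tested genes and 19.4% of all 27025 promoters of the same length. CCAAT stood in 78.3% of member promoters, in 39.0% of those of tested genes and in 37.9% of all. Both stood together in 33 of 46 members (71.7%), against 6.08% and 7.69%. Within 50 bases of the start, the CHR letters were in 71.7% of member promoters and in 3.54% of those of tested genes. E2F letters were in 19.6% of member promoters, close to the 17.1% of tested genes. A match describes letters in a window and is no evidence of binding. The first bases after the RefSeq start were found in an annotated transcript of the gene for 31 of the 46 members. For the others the start used may not be the annotated one.

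The 150 bases before the start are printed below for members on which the later results turn, 5′ to 3′ on the strand of the gene, with CHR and CCAAT letters of either strand in capitals. Cdk1, Espl1 and Kif11 fell in KO, Top2a and Bub3 lay under the fold cutoff there, Ckap2l fell in KO and not with LPS, and Pttg1 and Birc5 departed from the other members.
Cdk1 (chr10:69352913-69353062, minus strand): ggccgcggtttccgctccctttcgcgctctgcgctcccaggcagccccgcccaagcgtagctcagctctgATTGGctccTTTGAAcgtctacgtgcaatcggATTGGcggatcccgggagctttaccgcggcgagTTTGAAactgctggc
Espl1 (chr15:102296143-102296292, plus strand): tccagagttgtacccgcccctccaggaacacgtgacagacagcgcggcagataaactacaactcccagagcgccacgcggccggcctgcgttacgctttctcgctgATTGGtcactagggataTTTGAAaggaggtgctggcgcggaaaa
Kif11 (chr19:37376232-37376381, plus strand): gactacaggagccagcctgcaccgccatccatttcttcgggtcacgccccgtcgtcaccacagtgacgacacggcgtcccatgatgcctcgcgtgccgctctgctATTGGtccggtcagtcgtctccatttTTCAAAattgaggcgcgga
Ckap2l (chr2:129297213-129297362, minus strand): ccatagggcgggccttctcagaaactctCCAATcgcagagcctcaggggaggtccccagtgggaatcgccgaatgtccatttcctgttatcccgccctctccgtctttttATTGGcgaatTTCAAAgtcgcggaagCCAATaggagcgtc
Top2a (chr11:99024190-99024339, minus strand): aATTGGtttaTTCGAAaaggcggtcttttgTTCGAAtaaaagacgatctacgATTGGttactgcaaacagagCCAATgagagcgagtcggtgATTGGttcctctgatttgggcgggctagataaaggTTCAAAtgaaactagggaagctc
Bub3 (chr7:131560220-131560369, plus strand): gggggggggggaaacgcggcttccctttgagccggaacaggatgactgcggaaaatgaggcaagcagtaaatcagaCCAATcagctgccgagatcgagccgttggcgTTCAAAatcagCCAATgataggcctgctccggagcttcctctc
Pttg1 (chr11:43425982-43426131, minus strand): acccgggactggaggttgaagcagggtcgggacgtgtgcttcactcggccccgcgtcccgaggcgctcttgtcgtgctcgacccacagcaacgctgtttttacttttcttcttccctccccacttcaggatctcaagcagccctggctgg
Birc5 (chr11:117849087-117849236, plus strand): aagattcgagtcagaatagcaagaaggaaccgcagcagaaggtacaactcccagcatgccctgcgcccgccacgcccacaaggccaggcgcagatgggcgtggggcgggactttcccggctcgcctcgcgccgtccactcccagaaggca
The Cdk1 and Top2a stretches hold several matches of both kinds, and those of Pttg1 and Birc5 hold none. The Pttg1 stretch lies inside the annotated gene, whose 5′ end is at 43426251, so the bases before that end were not searched. Nuf2 and Nusap1 were further members with no match to any of the 3 letter sets, and Bub3, which did not pass the cutoffs in any comparison, held the CHR letters with 2 CCAAT boxes. Letters of the CHR stood in 14 of the 15 promoters of members that fell with LPS in WT and in 23 of the 30 of members not called there, and in 11 of 16 against 26 of 29 for the interaction described later. These shares are given as a description.

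**Figure D1:**
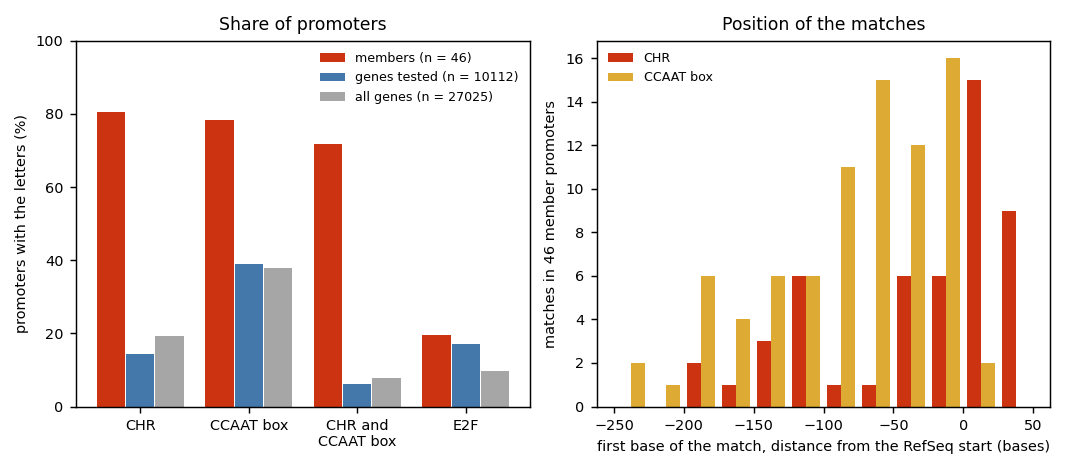
Left, the percentage of promoters that hold the CHR, CCAAT box or E2F letters, in 46 members (red), 10112 tested genes (blue) and all 27025 genes (grey). Right, the number of CHR and CCAAT matches in the 46 member promoters by distance from the RefSeq start in bases, in bins of 25; CHR matches lie mostly within 50 bases of the start.

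The targeted gene, Ctcf (chromosome 8, 105636568 to 105682922, plus strand, mm10), measured 1051, 987 and 975 in WT, 886, 817 and 745 in WTL, 569.7, 562 and 516 in KO and 564, 530.0 and 526 in KOL, as counts normalized by edgeR's TMM method and scaled to the mean library size. Every KO and KOL library lay below every WT and WTL library. The log2 fold change was -0.87 ± 0.08 (SE), adjusted p = 3.9e-07 in KO against WT and -0.59 ± 0.08 (SE), adjusted p = 2.4e-05 in KOL against WTL (edgeR quasi-likelihood test with Benjamini-Hochberg adjustment over all genes tested). The count covers the whole gene, including exons outside the loxP sites. Total counts were 12769773 to 16586334 per library. The LPS libraries varied more among themselves than the others, with a chi-square per degree of freedom between replicates of 8.78 to 86, against 1.7 to 4.75 without LPS. Replicate 2 was the farthest from the other replicates in WTL and in KOL. The deviation of a library from the other replicates of its group also followed gene length across the 54 members, which are not independent, with r = 0.68 in WTL replicate 1 and in KOL replicate 2, and in the other direction with r = -0.69 in WTL replicate 3 and -0.51 in KOL replicate 1. On the log2 scale the median deviation of the 10 longest members was 0.57, 0.51, -0.47 and -0.30 in these 4 libraries, and that of the 10 shortest -0.05, -0.21, 0.03 and 0.12. Each library was left out in turn, and WTL replicate 1 and KOL replicate 2 also together. The 9 dendritic cell markers were all detected and summed to 12530 to 13300 TPM in WT and 8106 to 8464 TPM in KO. With LPS their sum was 12100 to 16680 TPM in WTL and 11920 to 17150 TPM in KOL. None of the 4 erythroid, 4 B cell, 4 T or NK cell and 6 mast cell or basophil markers passed the filter.

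Most members were lower in KO than in WT, lower with LPS than without, and lowest where both were combined. Their summed TPM (a level per transcript length, scaled to the same sum in each library) was 1899 to 2073 in WT, 1288 to 1317 in KO, 918 to 1070 in WTL and 648 to 742 in KOL, and these 4 ranges did not overlap. Summed normalized counts, scaled by TMM and not by length, were 46220 to 47030 in WT, 31523 to 31629 in KO, 27824 to 35613 in WTL and 18270 to 21153 in KOL, so that on that scale WTL spanned KO. By mean normalized count, 50 of 54 were highest in WT and 48 were lowest in KOL. For 28 the mean in KO was above that in WTL.

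A member was called when its edgeR adjusted p was under 0.05 and its fold change over a cutoff, 1.3 without LPS and 1.5 with it. In KO against WT, 49 of 54 members fell and 2, Incenp and Pttg1, rose, with a median log2 fold change of -0.77 over the members and -0.01 over all genes tested. Among all tested genes, 17.2% were called lower and 17.3% higher. In KOL against WTL, 45 members fell and Incenp rose, with a median of -1.15 over members and -0.04 over all genes, where 12.5% of tested genes were called lower and 12.5% higher. The same 45 members were called lower in both. All 3 KO libraries lay below all 3 WT libraries for 52 members, a pattern shown by 32.3% of tested genes, and all 3 KOL below all 3 WTL libraries for 47, against 24.4%. These comparisons do not share libraries. The range over members that fell was -1.30 (Ckap2) to -0.48 (Bub1b) in KO against WT.

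**Figure D2:**
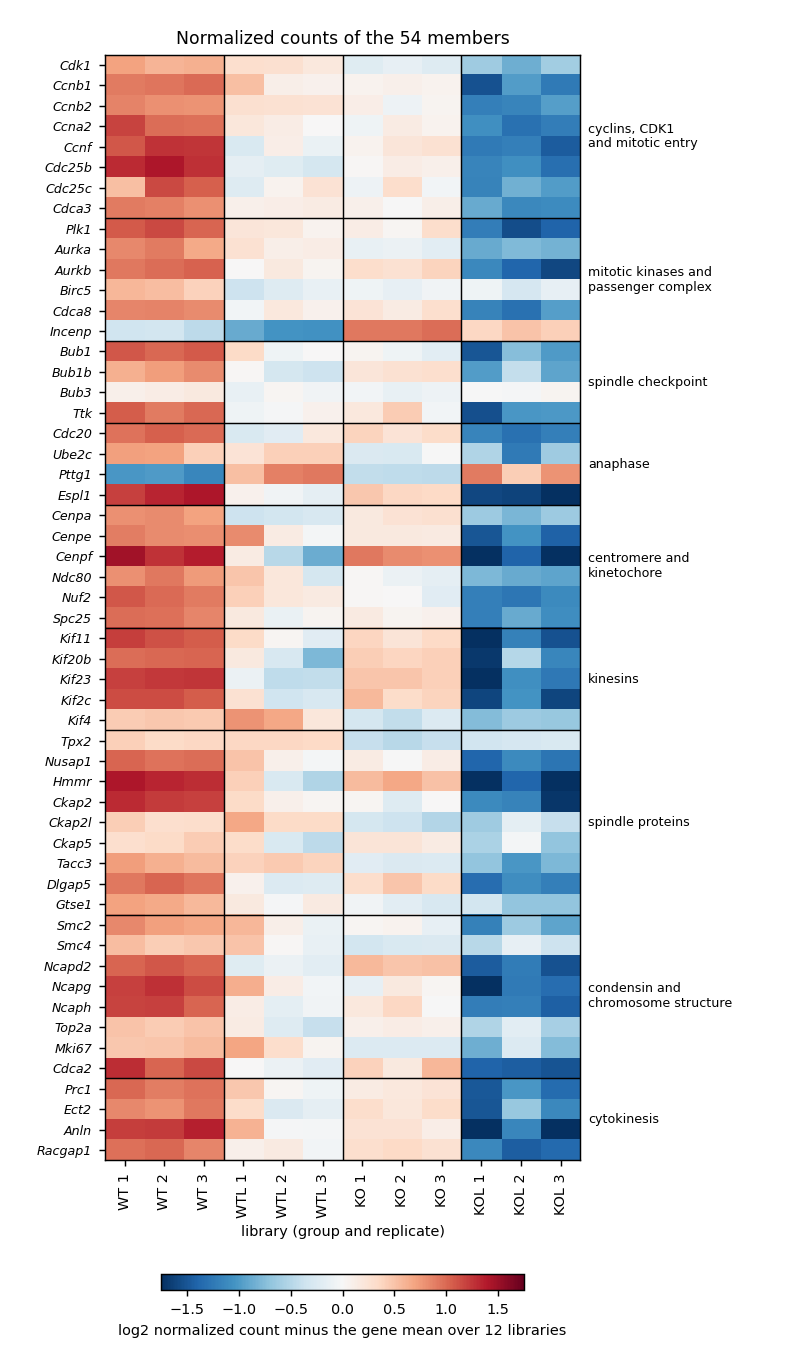
Log2 normalized count of each of the 54 members (rows, by role) in each of the 12 libraries (columns, by group), minus the gene's mean over the libraries; red is above and blue below that mean. Most rows run from red in WT to blue in KOL, with Incenp red in KO and KOL and Pttg1 red in WTL and KOL.

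All 8 genes of mitotic entry fell in KO against WT and in KOL against WTL, with medians of -0.88 and -1.18. Here and in the following, the level of a gene in a library is a normalized count, given for replicates 1, 2 and 3 in turn, and changes are log2 fold changes. Cdk1 (chromosome 10, 69335146 to 69352938, minus strand), the kinase that drives mitosis and whose promoter is printed above, measured 949.8, 884 and 898 in WT, 720.2, 712 and 664 in WTL, 504, 529 and 501 in KO and 378, 324 and 383 in KOL. The 4 groups did not overlap, and the log2 fold change was -0.83 ± 0.07 (SE), adjusted p = 4.4e-07 in KO against WT and -0.95 ± 0.08 (SE), adjusted p = 2.1e-07 in KOL against WTL. Ccnb1, a cyclin that activates CDK1, measured 988, 998 and 1039 in WT, 751, 561 and 551 in WTL, 544, 556 and 548 in KO and 182, 267 and 221 in KOL. Its WTL libraries spread from level with KO to well above it, and every KOL library was below all others. The change of Ccnb1 was -0.88 ± 0.12 (SE), adjusted p = 3.3e-05 in KO against WT and -1.47 ± 0.13 (SE), adjusted p = 5.9e-07 in KOL against WTL. Ccnb2, the second B-type cyclin, measured 599.8, 570.3 and 564 in WT, 399, 393 and 390.2 in WTL, 357, 308 and 338 in KO and 143, 146 and 168 in KOL, with no overlap between groups and KOL at the bottom. It had the smallest difference of this group between KO and WT, -0.79 ± 0.08 (SE), adjusted p = 1e-06. Cdc25b, a phosphatase that activates CDK1, had the largest, -1.26 ± 0.08 (SE), adjusted p = 9.8e-09, with 627, 676 and 610.2 in WT, 227, 218 and 204 in WTL, 257, 276 and 268 in KO and 113, 119 and 100.4 in KOL. Here the groups did not overlap either, and the WTL libraries lay below the KO libraries. Cdca3, which helps degrade the mitosis inhibitor WEE1, measured 786, 772 and 726 in WT, 444, 454 and 462 in WTL, 443, 417 and 451 in KO and 227, 192 and 194 in KOL. WTL and KO overlapped, and the change was -0.80 ± 0.07 (SE), adjusted p = 5.4e-07 in KO against WT and -1.15 ± 0.08 (SE), adjusted p = 4.6e-08 in KOL against WTL. Ccna2 and Ccnf, further cyclins, and the phosphatase Cdc25c changed by -1.0 ± 0.09, -1.02 ± 0.10 and -0.88 ± 0.19 in KO against WT (log2, SE), and each of them fell in KOL against WTL too. Counts of Ccna2 are uncertain where strand was not used, since Exosc9 overlaps it on the opposite strand with a mean count 77.9% of its own.

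The chromosomal passenger complex, which corrects wrong attachments of chromosomes to the spindle, was the group in which members parted. Its kinase Aurkb measured 426, 442 and 461 in WT, 225, 254 and 231 in WTL, 276, 269 and 293 in KO and 102, 85.4 and 73.7 in KOL, without overlap between groups and with KOL far below. It fell by 0.67 on the log2 scale in KO against WT (SE 0.09, edgeR adjusted p = 3.2e-05) and by 1.44 in KOL against WTL (adjusted p = 1.2e-07). Cdca8 (borealin), a targeting subunit of the complex, measured 728, 734 and 717 in WT, 389.8, 456 and 425 in WTL, 475, 446 and 492 in KO and 178, 163 and 207 in KOL. WTL and KO overlapped there, and the change was -0.62 ± 0.08 (SE), adjusted p = 2.3e-05 and -1.21 ± 0.09 (SE), adjusted p = 1.2e-07 in the same comparisons. Incenp (chromosome 19, 9872296 to 9899551, minus strand), the scaffold that binds the other 3 subunits, went the other way, with 1397, 1428 and 1301 in WT, 969.7, 859 and 857 in WTL, 3362, 3391 and 3514 in KO and 2281, 2511 and 2381 in KOL. All KO and KOL libraries were above all WT and WTL libraries, and the change was 1.32 ± 0.07 (SE), adjusted p = 3.3e-09 in KO against WT and 1.42 ± 0.07 (SE), adjusted p = 2.3e-09 in KOL against WTL. Averaged over the 12 libraries, Incenp had the highest TPM of the 6 genes. It was at 146 ± 4.75 in KO and 68.5 ± 8.5 in WT (SD, n = 3), and in WT Birc5 was higher, at 92.8. A transcript model of unclassified type overlaps Incenp on the same strand, so its count is uncertain to that extent. Birc5 (survivin), the subunit that brings the complex to the centromere, measured 833, 812 and 737 in WT, 436, 477 and 512 in WTL, 528, 504 and 533 in KO and 531, 454 and 507 in KOL. WT stood above, and the other 3 groups overlapped one another, so that Birc5 fell in KO against WT (-0.61 ± 0.08 (SE), adjusted p = 2.6e-05) and was not called in KOL against WTL (0.07 ± 0.08 (SE), adjusted p = 0.56).

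The remaining kinases followed the majority. Plk1, which acts from mitotic entry to cytokinesis, measured 442, 469 and 428 in WT, 244, 243 and 219 in WTL, 229.7, 215 and 259 in KO and 90.3, 71.4 and 79 in KOL. WTL and KO overlapped, KOL lay lowest, and the change was -0.93 ± 0.09 (SE), adjusted p = 1.4e-06 in KO against WT and -1.55 ± 0.11 (SE), adjusted p = 6.7e-08 in KOL against WTL. Aurka, the kinase of the spindle poles, measured 434, 456 and 386 in WT, 293, 261 and 266 in WTL, 222, 226 and 213 in KO and 131, 143 and 137 in KOL. The groups did not overlap, and the change was -0.95 ± 0.08 (SE), adjusted p = 4e-07 in KO against WT. In KOL against WTL the change was -0.99 ± 0.09 (SE), also past the cutoff.

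**Figure D3:**
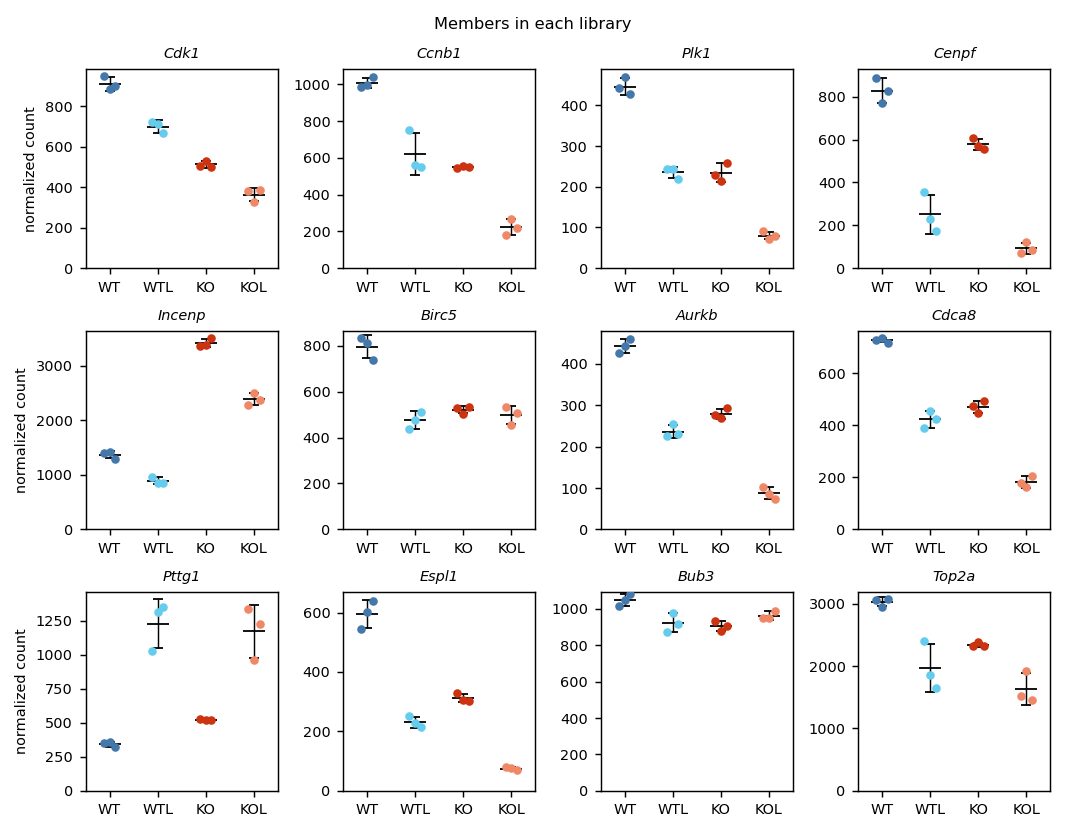
Normalized counts of 12 members in each library, with points for the 3 replicates of each group, a bar at the mean and whiskers of 1 SD; all axes start at 0. Cdk1, Ccnb1, Plk1, Cenpf, Aurkb, Cdca8 and Espl1 are lowest in KOL, Incenp is highest in KO, Birc5 is highest in WT, and Pttg1 is highest in WTL and KOL.

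The genes within 200 kb of Incenp were compared after its values had been seen. Of the 5 other tested genes there, Rab3il1 (1.66) and Fads3 (2.44) rose in KO against WT, Best1 (-1.37) and Fads2 (-1.78) fell, and Fth1 was not called (0.33, edgeR adjusted p = 0.096). Among all tested genes 17.2% fell and 17.3% rose in KO against WT. In KOL against WTL these 5 genes were at 1.82, 2.71, -1.06, -1.15 and 0.11, in the same order. Best1 and Rab3il1, which moved in opposite directions, lie side by side. The 1 tested neighbour of Pttg1, Slu7, was not called (0.11, edgeR adjusted p = 0.35).

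Of the spindle checkpoint genes, 3 of 4 fell in KO against WT and 2 of 4 in KOL against WTL. Bub1, a checkpoint kinase at the kinetochore, measured 560.3, 534 and 559 in WT, 334, 251 and 265 in WTL, 274, 251 and 233 in KO and 93.5, 158 and 134 in KOL. WTL and KO overlapped, WT was highest, and the change was -1.12 ± 0.13 (SE), adjusted p = 8.7e-06 in KO against WT and -1.14 ± 0.15 (SE), adjusted p = 3.3e-05 in KOL against WTL. Bub3, the binding partner of Bub1 and Bub1b, measured 1018, 1048 and 1083 in WT, 875, 980.3 and 918 in WTL, 931, 878 and 905 in KO and 951, 949 and 991 in KOL. Its groups lay close together, and neither its change in KO against WT, -0.21 ± 0.07 (SE), adjusted p = 0.016, nor that in KOL against WTL, 0.06 ± 0.07 (SE), adjusted p = 0.51, was called. The kinase Ttk fell in both (-0.78 ± 0.15 and -1.18 ± 0.19, SE), and Bub1b, the checkpoint protein BUBR1, fell in the first (-0.48 ± 0.13) and missed the fold cutoff in the second (-0.54 ± 0.14).

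Among the anaphase genes, Espl1 and Pttg1 encode separase, the protease that cuts cohesin, and securin, its inhibitor, and they moved in opposite directions in KO against WT. Espl1 measured 546, 600.5 and 638 in WT, 251, 229 and 214 in WTL, 329, 306 and 303 in KO and 78.5, 77.2 and 68.3 in KOL. No groups overlapped, and the change was -0.93 ± 0.08 (SE), adjusted p = 5.1e-07 in KO against WT and -1.62 ± 0.11 (SE), adjusted p = 2.8e-08 in KOL against WTL. Pttg1 (chromosome 11, 43420250 to 43426251, minus strand) measured 350.0, 358 and 322 in WT, 1026, 1316 and 1350 in WTL, 528, 521 and 519.7 in KO and 1340, 961 and 1225 in KOL. The KO libraries were all above the WT libraries, with a change of 0.61 ± 0.13 (SE), adjusted p = 0.0012, whereas WTL and KOL overlapped (-0.07 ± 0.12 (SE), adjusted p = 0.67). The sign of that second value changed when WTL replicate 3 (0.00) or KOL replicate 2 (0.06) was left out. Cdc20 and Ube2c, the activator of the anaphase-promoting complex and its ubiquitin-conjugating enzyme, fell in KO against WT (-0.68 ± 0.10 and -0.79 ± 0.14, SE) and in KOL against WTL (-1.14 ± 0.12 and -1.13 ± 0.15). Elovl1 overlaps Cdc20 on the opposite strand at 564% of its mean count, so Cdc20 is uncertain where strand was not used.

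The 6 centromere and kinetochore genes all fell in KO against WT and 5 of 6 in KOL against WTL. Cenpa, the histone variant that marks centromeres, measured 1354, 1381 and 1272 in WT, 607, 625 and 642 in WTL, 874, 926 and 949.5 in KO and 501, 449 and 503 in KOL. Its groups did not overlap, but its change in KOL against WTL (-0.37 ± 0.07 (SE), adjusted p = 0.0009) lay under the fold cutoff, while that in KO against WT (-0.54 ± 0.07 (SE), adjusted p = 1.6e-05) passed. Nuf2, part of the NDC80 complex that holds microtubules, measured 472, 439 and 416 in WT, 295, 252 and 247 in WTL, 223, 223 and 193 in KO and 95.7, 91.3 and 101 in KOL. It had no overlap between groups, and changed by -1.05 ± 0.09 (SE), adjusted p = 3.9e-07 in KO against WT and by -1.45 ± 0.11 (SE), adjusted p = 8.4e-08 in KOL against WTL. Its partners Ndc80 and Spc25 fell in both comparisons (-0.90 ± 0.14 and -0.84 ± 0.10 in KO against WT, SE). Cenpe, a kinetochore motor, measured 1107, 1057 and 1048 in WT, 1060, 659.7 and 583 in WTL, 675, 676 and 667 in KO and 212, 288 and 223 in KOL. WTL overlapped WT and KO, and KOL lay below all of them. The difference between KOL and WTL, -1.67 ± 0.18 (SE), adjusted p = 4.2e-06, was larger in size than that between KO and WT, -0.67 ± 0.16 (SE), adjusted p = 0.0042, and the test of that difference is given with the LPS results. Cenpf, a large kinetochore protein of G2 and mitosis, measured 887, 769.9 and 828 in WT, 353, 229 and 175 in WTL, 608, 569 and 557 in KO and 71, 120.5 and 85.4 in KOL, with the WTL libraries all below the KO libraries. Its change in KO against WT, -0.52 ± 0.17 (SE), adjusted p = 0.023, was the smallest of the group and was lost without WT replicate 1 (adjusted p = 0.065) or without KO replicate 1 (0.05), 2 (0.072) or 3 (0.081). In KOL against WTL it was -1.44 ± 0.23 (SE), adjusted p = 0.00013.

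The 5 kinesins, motors of the spindle, all fell in both comparisons. Kif11, which pushes the spindle poles apart, measured 1014, 946 and 912 in WT, 554, 448 and 381 in WTL, 566, 515 and 557 in KO and 127, 192 and 153 in KOL. KOL was below every other library, and the change was -0.81 ± 0.12 (SE), adjusted p = 0.0001 in KO against WT and -1.55 ± 0.15 (SE), adjusted p = 9.7e-07 in KOL against WTL. Kif23, a motor of the central spindle, measured 746, 768 and 774 in WT, 303, 239 and 240.3 in WTL, 455, 456 and 433 in KO and 94.6, 154 and 136 in KOL. All WTL libraries lay below all KO libraries, and the change was -0.77 ± 0.11 (SE), adjusted p = 7.3e-05 and -1.02 ± 0.14 (SE), adjusted p = 4e-05 in those comparisons. Kif20b, which acts in cytokinesis, measured 498, 509 and 515 in WT, 285, 208 and 147 in WTL, 343, 329 and 339 in KO and 78.5, 179 and 114 in KOL. The KOL and WTL libraries of Kif20b overlapped, and its call in KO against WT (-0.59 ± 0.20 (SE), adjusted p = 0.026) was lost without any 1 of WT replicates 2 and 3 and KO replicates 1, 2 and 3 (adjusted p of 0.054 to 0.08), as was that in KOL against WTL (-0.78 ± 0.24 (SE), adjusted p = 0.018) without WTL replicate 1 (0.087), KOL replicate 1 (0.085) or KOL replicate 3 (0.065). Kif2c and Kif4, which shorten microtubules and organize chromosomes, changed by -0.68 ± 0.14 and -0.78 ± 0.12 in KO against WT (SE). Pdzd11 overlaps Kif4 on the opposite strand at 129% of its mean count, and in the same way Lcorl overlaps Ncapg (92.6%), 9930104L06Rik overlaps Cdca8 (62.7%) and Tmem129 overlaps Tacc3 (41.4%), so these too are uncertain.

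Of the 9 spindle proteins, 8 fell in both comparisons. Tacc3, which stabilizes spindle fibres and had the highest TPM of the 9 over all libraries, measured 781, 720.4 and 687 in WT, 622, 646 and 615 in WTL, 409, 393 and 397 in KO and 289, 230.5 and 272 in KOL. The groups did not overlap, and WTL stayed closer to WT than KO did. The change was -0.87 ± 0.08 (SE), adjusted p = 7.1e-07 in KO against WT and -1.25 ± 0.09 (SE), adjusted p = 3.5e-08 in KOL against WTL. Ckap2, a microtubule-binding protein, measured 261, 247 and 241 in WT, 134, 112 and 107 in WTL, 108, 90.2 and 106 in KO and 48.4, 46.8 and 32 in KOL. It had the largest fall of all members in KO against WT, -1.30 ± 0.13 (SE), adjusted p = 1.4e-06. Nusap1, which bundles microtubules near chromosomes, measured 1021, 968 and 989 in WT, 712, 535 and 491 in WTL, 555, 502 and 552 in KO and 192, 232 and 207 in KOL. In both genes WTL and KO overlapped and the 3 KOL libraries were lowest, and Nusap1 changed by -0.89 ± 0.11 (SE), adjusted p = 1.4e-05 in KO against WT. Hmmr, a spindle and hyaluronan-binding protein, measured 738, 694 and 675 in WT, 369.5, 231 and 192 in WTL, 406, 443 and 395 in KO and 73.1, 105 and 64.1 in KOL. The groups did not overlap, and WTL replicate 1 and KOL replicate 2 were the highest of theirs. Hmmr changed by -0.76 ± 0.17 (SE), adjusted p = 0.002 in KO against WT and by -1.70 ± 0.22 (SE), adjusted p = 2.3e-05 in KOL against WTL. Dlgap5, which binds kinetochore fibres, measured 357, 382 and 361 in WT, 198, 160.3 and 161 in WTL, 234, 265 and 237 in KO and 74.2, 88.9 and 82.2 in KOL. Again no groups overlapped, and it changed by -0.58 ± 0.09 (SE), adjusted p = 0.00016 and -1.08 ± 0.12 (SE), adjusted p = 4.2e-06. Ckap5, a microtubule polymerase that cells also use outside mitosis, measured 1323, 1359 and 1457 in WT, 1337, 890.4 and 785 in WTL, 1255, 1260 and 1192 in KO and 729, 1053 and 667 in KOL. Its WTL libraries overlapped every other group, and neither change was called (-0.16 ± 0.17 (SE), adjusted p = 0.49 and -0.30 ± 0.18 (SE), adjusted p = 0.2). Tpx2, Ckap2l and Gtse1, regulators of spindle assembly and G2, fell in KO against WT by 0.80, 0.74 and 0.82 on the log2 scale.

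Of the 8 genes of condensin and chromosome structure, 7 fell in KO against WT and 6 in KOL against WTL. Top2a, the topoisomerase that untangles sister chromatids, measured 3067, 2954 and 3079 in WT, 2401, 1862 and 1644 in WTL, 2316, 2380 and 2318 in KO and 1515, 1921 and 1456 in KOL. The KO libraries were all below the WT libraries, but the difference, -0.38 ± 0.12 (SE), adjusted p = 0.022, lay just under the fold cutoff of 1.3 and passed it without WT replicate 1 (-0.41), 2 (-0.43) or 3 (-0.40). In KOL against WTL it was -0.27 ± 0.12 (SE), adjusted p = 0.094. Ncapg, a condensin I subunit, measured 470.3, 501 and 452 in WT, 318, 225 and 199 in WTL, 186, 232 and 209 in KO and 58.1, 86.6 and 81.2 in KOL. WTL and KO overlapped, and it had the largest fall of this group in KO against WT, -1.18 ± 0.15 (SE), adjusted p = 1.5e-05. Ncapd2, another, measured 1329, 1396 and 1330 in WT, 565, 609.9 and 577 in WTL, 972, 913 and 929 in KO and 239, 278 and 226 in KOL. Its WTL libraries lay below its KO libraries, and it changed by -0.53 ± 0.07 (SE), adjusted p = 4e-05 in KO against WT and by -1.24 ± 0.08 (SE), adjusted p = 2.7e-08 in KOL against WTL. Cdca2, which recruits a phosphatase to chromosomes, measured 316, 262 and 287 in WT, 129.5, 119 and 112 in WTL, 170.5, 145 and 193 in KO and 48.4, 46.8 and 44.9 in KOL. For all 3 genes KOL lay lowest, and Cdca2 changed by -0.76 ± 0.11 (SE), adjusted p = 6.2e-05 in KO against WT. Smc2, Smc4 and Ncaph, the other condensin subunits, fell in KO against WT by 0.76, 0.76 and 0.95 on the log2 scale, and Smc4 missed the cutoff in KOL against WTL (-0.48 ± 0.13, SE). Mki67, the proliferation marker Ki-67, had the largest counts of the 54, with means of 5989 ± 179 in WT, 5474 ± 1257 in WTL, 3577 ± 5.21 in KO and 2797 ± 666 in KOL (SD, n = 3), and fell in both (-0.74 ± 0.16 and -0.97 ± 0.16, SE).

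The 4 cytokinesis genes fell in both comparisons, with medians of -0.70 and -1.40. Prc1, which bundles the microtubules of the central spindle, measured 1274, 1186 and 1238 in WT, 882, 652 and 604 in WTL, 705, 724 and 754 in KO and 228, 316 and 249.9 in KOL. WTL and KO overlapped, and the change was -0.76 ± 0.12 (SE), adjusted p = 0.00018 in KO against WT and -1.43 ± 0.14 (SE), adjusted p = 1.2e-06 in KOL against WTL. Anln (anillin), a scaffold of the contractile ring, measured 781, 782 and 863 in WT, 512, 330.4 and 328 in WTL, 399, 399 and 365 in KO and 93.5, 152 and 85.4 in KOL. It had the largest fall of the 54 in KOL against WTL, -1.82 ± 0.20 (SE), adjusted p = 4.3e-06, and changed by -1.06 ± 0.16 (SE), adjusted p = 0.00011 in KO against WT. Racgap1, which with Kif23 forms centralspindlin, measured 1126, 1158 and 1035 in WT, 608, 644 and 557 in WTL, 702, 729 and 692 in KO and 261, 211 and 224 in KOL. No groups overlapped, and it changed by -0.64 ± 0.08 (SE), adjusted p = 1.6e-05 and -1.38 ± 0.09 (SE), adjusted p = 2.6e-08. Ect2, the exchange factor that centralspindlin recruits, measured 421, 407 and 448 in WT, 295, 197 and 210.5 in WTL, 291, 269.8 and 293 in KO and 82.8, 149 and 108 in KOL. Its WTL and KO libraries overlapped, and it changed by -0.58 ± 0.15 (SE), adjusted p = 0.0063 and -1.05 ± 0.18 (SE), adjusted p = 0.0003. In all 4 genes every KOL library was below every library of the other groups.

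**Figure D4:**
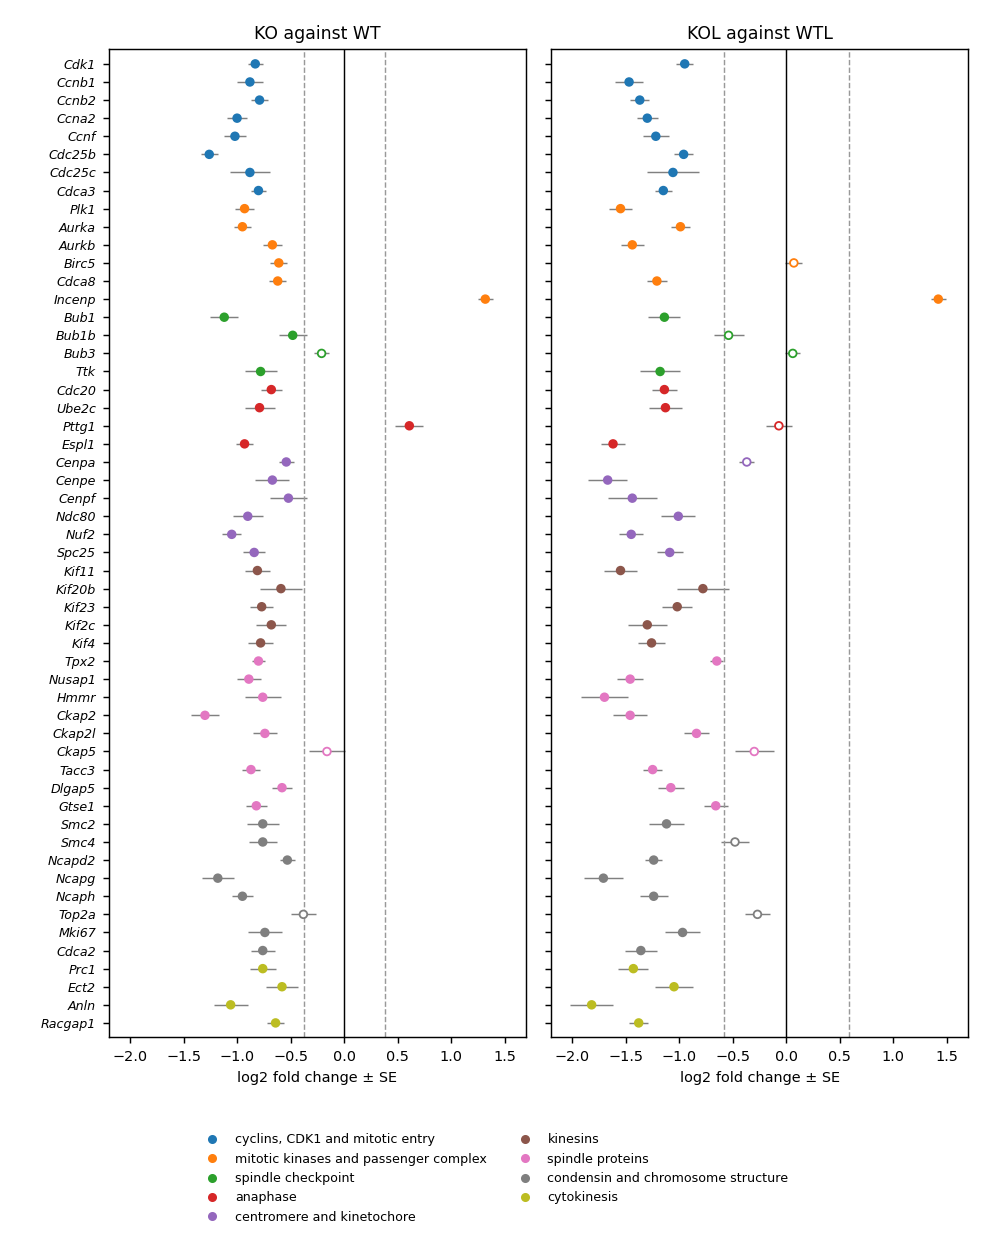
Log2 fold change ± SE of each member, KO against WT (left) and KOL against WTL (right), coloured by role; filled points passed the adjusted p and fold cutoff, open points did not, and dashed lines mark the fold cutoffs of 1.3 and 1.5. Nearly all points lie left of 0, with Incenp at 1.32 and 1.42 and Pttg1 at 0.61 on the left panel.

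With LPS, most members were lower in both genotypes. The fold cutoff for LPS was 2. In WTL against WT, 17 of 54 members fell and Pttg1 rose, where 9.99% of tested genes were called lower and 12.6% higher. The median log2 fold change was -0.87 over members and -0.02 over all genes. By adjusted p alone 48 of 54 were lower. The 9.99% includes the fold cutoff and is no background for that count, and the share by adjusted p alone is not given here. In KOL against KO, 34 fell and Pttg1 rose, with a median of -1.25 over members and -0.02 over all genes, against 13% of tested genes called lower and 15.1% higher. All 3 libraries with LPS lay below all 3 without it for 45 members in WT, against 33.3% of tested genes, and for 48 in KO, against 36.3%. These comparisons use the same 12 libraries as those above, so the 4 are not independent of one another. In all 4, 16 members were called lower, and the share of all tested genes with that pattern is not given here. The count for WTL against WT rested on the scaling: with counts scaled by the library total instead of TMM, the median of all genes moved from -0.02 to -0.53 and 42 members were called lower. The 9.99% holds for TMM, and the share of all tested genes called lower with total-count scaling is not given here. Without WTL replicate 1 and KOL replicate 2, 20 members were lower in WTL against WT, 36 in KOL against KO and 45 in KOL against WTL.

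The members called with LPS in WT came from several roles. The largest falls were of Cenpf (-1.73 ± 0.19 (SE), adjusted p = 1.7e-06), Cdc25b (-1.56 ± 0.08 (SE), adjusted p = 5.1e-10), Kif23 (-1.55 ± 0.12 (SE), adjusted p = 5.6e-08), Hmmr (-1.43 ± 0.18 (SE), adjusted p = 7.9e-06) and Espl1 (-1.37 ± 0.09 (SE), adjusted p = 5.7e-09). In KO, Cenpf (-2.65 ± 0.21 (SE), adjusted p = 5.8e-08), Hmmr (-2.36 ± 0.21 (SE), adjusted p = 1.9e-07) and Espl1 (-2.07 ± 0.10 (SE), adjusted p = 3.8e-10) again had the largest. Cdk1 and the B-type cyclins missed the cutoff of 2 in WT: the change was -0.38 ± 0.07 (SE), adjusted p = 0.00041 for Cdk1, -0.70 ± 0.12 (SE), adjusted p = 0.00015 for Ccnb1 and -0.55 ± 0.08 (SE), adjusted p = 2.1e-05 for Ccnb2. None of the 6 kinase and passenger genes and none of the 4 checkpoint genes was called with LPS in WT. With 9.99% of tested genes called lower, nothing is read from these counts. For all 6 and all 4 the WTL libraries lay below the WT libraries, as for 33.3% of tested genes. Their medians were -0.76 and -0.96, against -0.87 over all members. Several lay near the cutoff: Aurkb passed without WT replicate 1 (-1.01), Plk1 without WT replicate 1 (-1.01) or 3 (-1.03), and Bub1 without any 1 of the WT replicates or WTL replicate 1 (-1.10 to -1.03), while Anln lost its call without WTL replicate 2 or 3 (-0.95 in each) and Kif11 without WTL replicate 3 (-0.94).

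Some members that fell in KO lay near 0 with LPS in WT when counts were scaled by TMM. Those named here, chosen after their values were seen, were Tpx2 (-0.02 ± 0.06, SE), Ckap2l (0.11 ± 0.11), Kif4 (0.12 ± 0.12), Mki67 (-0.13 ± 0.15) and Ube2c (-0.25 ± 0.14), and their adjusted p ranged from 0.13 to 0.79. Tpx2, which activates Aurka on the spindle, had means of 1037 ± 29.1 in WT and 1023 ± 5.98 in WTL, against 594 ± 18.6 in KO and 650.5 ± 12.9 in KOL (SD, n = 3). With total-count scaling the changes were -0.53 (Tpx2), -0.40 (Ckap2l), -0.40 (Kif4), -0.64 (Mki67) and -0.76 (Ube2c), where the median of all genes was -0.53. Relative to that median, Tpx2 and Mki67 were at 0.00 and -0.11. Subtracting the median largely undoes the change of scaling, so this is no separate check.

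Pttg1 was the 1 member that rose with LPS. The WTL libraries were all above the WT libraries (1.84 ± 0.12 (SE), adjusted p = 1.1e-08), and the KOL libraries above the KO libraries (1.17 ± 0.12 (SE), adjusted p = 9.3e-07). The rise in WT kept its call in every alternative, while that in KO was 0.80 with total-count scaling, 0.84 with a correction for gene length and 0.51 and 0.52 in limma on TPM, under the cutoff in each. Incenp was lower with LPS in both genotypes, by 0.62 and 0.52 on the log2 scale, short of the cutoff, so that KOL remained above WT.

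The interaction, the LPS difference in KO minus that in WT, was called by adjusted p alone, at 8.75% of tested genes lower and 8.7% higher. It was called lower for 19 members and higher for 1, Birc5. Lower values were found for the mitotic entry genes Ccnb1, Ccnb2 and Cdca3, the kinase and passenger genes Plk1, Aurkb and Cdca8, both Pttg1 and Espl1, the kinetochore genes Cenpe and Cenpf, the kinesin Kif11, the spindle genes Nusap1, Hmmr, Tacc3 and Dlgap5, the chromosome genes Ncapd2 and Cdca2, and the cytokinesis genes Prc1 and Racgap1. The largest were Cenpe (-1.0 ± 0.24 (SE), adjusted p = 0.012), Hmmr (-0.94 ± 0.28 (SE), adjusted p = 0.033), Cenpf (-0.92 ± 0.28 (SE), adjusted p = 0.039) and Aurkb (-0.78 ± 0.14 (SE), adjusted p = 0.0021). For Cenpe the fall with LPS was 1.48 in KO and the difference in WT was -0.49. Birc5 (0.67 ± 0.12 (SE), adjusted p = 0.0013) was lower with LPS in WT (-0.74, below the fold cutoff) and near 0 in KO (-0.07). The count of lower members was 8 without WT replicate 3, 9 without WT replicate 1 or 2, 10 without KO or KOL replicate 3 and 11 without KO or KOL replicate 1. It was 9, with 4 higher, under total-count scaling, and 23, with 3 higher, without WTL replicate 1 and KOL replicate 2 together. Ccnb2, Aurkb, Birc5, Cdca8, Cenpe and Racgap1 were called in all 10 alternatives and in all 12 fits that left out a library. For the other 14, 1 or more of these removed the call.

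**Figure D5:**
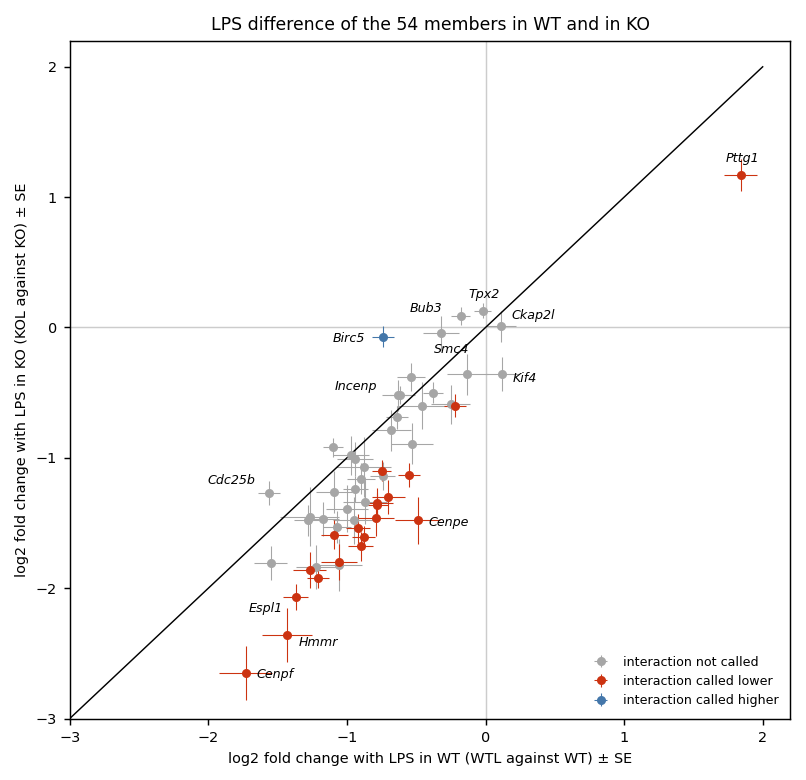
Log2 fold change ± SE with LPS in WT (horizontal) and in KO (vertical) for the 54 members; the diagonal marks equal differences, and red and blue points were called lower and higher in the interaction. Most points lie below 0 on both axes, Pttg1 lies above 0 on both, and Birc5 is the blue point above the diagonal.

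Transcriptional regulators of mitotic genes were examined as a list of 23 genes, all tested. Their binding to the promoters of the members was not examined. In KO against WT 7 fell, Nfyb rose and 15 were not called, with a median of -0.19, where 17.2% of all tested genes fell and 17.3% rose. Foxm1, the activator of G2/M genes, fell in KO (-0.72 ± 0.09 (SE), adjusted p = 1.8e-05) and in KOL against WTL (-1.14 ± 0.11 (SE), adjusted p = 1.4e-06). Mybl2 (B-MYB), which works with MuvB, also fell in both (-0.80 ± 0.12 and -0.89 ± 0.11, SE). With LPS in WT, Foxm1 was lower (-0.97) and Mybl2 higher (0.92), both short of the fold cutoff. Of the MuvB core, Lin52 fell in KO (-0.48 ± 0.13, SE), and Lin9, Lin37, Lin54 and Rbbp4 were not called. Of the E2F factors, E2f2, E2f7 and E2f8 fell in KO (-0.55 ± 0.07, -0.98 ± 0.15 and -0.80 ± 0.08, SE), and E2f2, an activator of the S phase genes, fell the most of the list with LPS in WT (-2.48 ± 0.09 (SE), adjusted p = 7.7e-12). The NF-Y subunits, which bind CCAAT, parted: Nfya fell (-0.49 ± 0.07, SE), Nfyb rose (0.61 ± 0.08) and Nfyc was not called (-0.24 ± 0.12).

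Genes of the same pathways outside the 54 were counted in KO against WT, where 17.2% of all tested genes fell and 17.3% rose. Of 32 other kinetochore and checkpoint genes, 22 fell and none rose, led by Ska1 (-1.32 ± 0.18, SE) and Ska3 (-1.0 ± 0.18). All 7 other mitotic kinesins fell, from Kif18a (-1.06 ± 0.14) to Kif15 (-0.73 ± 0.10), whereas of 11 kinesins that carry cargo along microtubules none fell and 3 rose, among them Kif21a (1.44 ± 0.37). The 3 subunits specific to condensin II fell, Ncapg2 the most (-1.51 ± 0.13). Of 33 further G2/M genes, 25 fell and 2 rose, with Shcbp1 (-1.59 ± 0.18) and Depdc1a (-1.20 ± 0.13) at the low end and Anp32e (1.16 ± 0.06) and Cep55 (0.69 ± 0.11) at the high end. Of the 17 genes of the anaphase-promoting complex and its inhibitors, 1 fell, the inhibitor Fbxo5 (-0.87 ± 0.12), and 2 rose, Anapc16 (0.50 ± 0.08) and Anapc1 (0.47 ± 0.13). Of 10 tubulins 4 fell and 1, Tubb2b (4.14 ± 0.15), rose. The shares for the anaphase-promoting complex, the tubulins and the cargo kinesins lay nearer to those of all tested genes than the shares of the other 4 lists did, and nothing is read from them.

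S phase genes were lower in KO as well, by less. Of 32 S phase genes 22 fell and 1 rose in KO against WT, where 17.2% of all tested genes fell and 17.3% rose. Their median was -0.54, against -0.77 over the 54 members. Rrm2, a subunit of ribonucleotide reductase, fell most (-1.09 ± 0.10, SE), and Mcm2, part of the replicative helicase, rose (0.58 ± 0.06). In KOL against WTL, 15 of 32 fell with a median of -0.53, where 12.5% of tested genes fell. With LPS in WT 5 of 32 fell, also with a median of -0.53. That count lay nearer to the 9.99% of all tested genes, and nothing is read from it. The difference between the S phase genes and the members was not tested.

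Markers of cell types also differed between groups, and with LPS in KO more of them rose than fell. In KO against WT, 17.2% of all tested genes fell and 17.3% rose. Of 8 neutrophil markers 7 were tested and 6 fell in KO against WT, with a summed TPM of 448 to 482 in WT and 252 to 284 in KO, while Cebpe rose (2.42 ± 0.18, SE). With LPS the sum was 395 to 505 in WTL and 348 to 400.1 in KOL. The early myeloid progenitor markers, of which 5 of 8 were tested, summed to 7.93 to 10.4 TPM in WT, 5.34 to 6.27 in KO, 8.28 to 11.9 in WTL and 10.9 to 15.0 in KOL, with WTL and KOL overlapping. In KO against WT the list parted, and 2 of the 5 fell and 2 rose (log2 fold changes from -1.65 to 1.03). The 9 macrophage markers parted as well: 4 fell and 3 rose in KO against WT (from -1.93 to 1.27), while their sum was at 815 to 867 TPM in WT and 855 to 885 in KO. Of the 9 dendritic cell markers 5 fell in KO against WT, with Flt3 (-2.0 ± 0.22) and Cd209a (-1.92 ± 0.18) the lowest, and 3 were not called. Itgax, which encodes the CD11c used for selection, rose (0.83 ± 0.08). In KOL against KO, where 13% of tested genes fell and 15.1% rose, 0 neutrophil markers fell and 3 rose. The counts there were 0 and 4 for progenitor, 1 and 3 for macrophage and 0 and 7 for dendritic cell markers. In WTL against WT, 9.99% of tested genes fell and 12.6% rose. There 0 neutrophil, 0 progenitor, 1 macrophage and 0 dendritic cell markers fell, and 1, 2, 2 and 1 rose. The falls lay near the share of all tested genes, and nothing is read from them. The part of these shifts in the member values was not tested.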

How the data were processed

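RNA-seq was carried out on 12 libraries, 3 replicates in each of WT, WTL, KO and KOL, grouped by their sample titles. The authors aligned reads to mm10 with STAR, for which the sources used here give differing versions, and deposited RSEM expected counts, which are estimated counts that need not be whole, for 55335 genes. The TPM and gene lengths that the authors deposited were used for levels and per-length comparisons, and their FPKM was not used. Ribosomal RNA depletion is named in the labels and a stranded poly(A) kit in the study's methods, and whether counting used strand is not given in the sources used here. Genes that overlap are therefore uncertain.

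Expected counts were rounded, scaled by TMM, filtered by group and tested with the edgeR 4.0.16 quasi-likelihood test in R 4.3.3, in 1 fit of 12 libraries, with Benjamini-Hochberg adjustment over 14008 genes. Errors of log2 fold changes are SEs. Normalized counts were obtained by scaling each library to the mean effective size of the 12. Depth was 12769773 to 16586334 counts per library, and no member was at or under 3 counts in a whole group. Tests were run first on simulated data. Alternatives were DESeq2 1.42.0, its size factors, limma 3.58.1 on TPM with pseudocounts of 1 and 0.1 before taking log2, other filters, a replicate block and leaving out each replicate, and 3 more chosen after seeing the data (total-count scaling, a correction for gene length, and leaving out WTL replicate 1 with KOL replicate 2). Promoters were read from RefSeq. Tables were handled with Python 3.11.15 and pandas 2.3.3.

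The rule for the members uses no measured value, but the members, gene lists and roles were chosen with earlier results of these data known. Values in every library are given for the member of each role with the highest mean TPM over the 12 libraries, those with the lowest and highest change in KO against WT, every member called in the interaction, and every member called against the majority.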

Additional observations from a re-analysis of the deposited data

Results flagged for a closer look

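The LPS difference was called different between KO and WT for 20 of the 54 members, by the edgeR interaction test with an adjusted p under 0.05. By that rule 8.75% of all tested genes were called lower and 8.7% higher. Only Ccnb2, Aurkb, Birc5, Cdca8, Cenpe and Racgap1 kept the call in every alternative and in every fit that left out a library. Values are the log2 difference in KO minus that in WT, and none of the causes was tested. Among genes of mitotic entry it was -0.60 for Ccnb1, -0.58 for Ccnb2 and -0.35 for Cdca3. It was -0.62 for Plk1, -0.78 for Aurkb and -0.59 for Cdca8, and 0.67 for Birc5, whose LPS difference was smaller in KO than in WT. Of the anaphase genes, Pttg1 was at -0.68, a smaller rise in KO, and Espl1 at -0.70. The kinetochore genes Cenpe and Cenpf were at -1.0 and -0.92, and the kinesin Kif11 at -0.74. Among spindle proteins the value was -0.57 for Nusap1, -0.94 for Hmmr, -0.38 for Tacc3 and -0.49 for Dlgap5. It was -0.71 for Ncapd2, -0.59 for Cdca2, -0.67 for Prc1 and -0.73 for Racgap1.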

How the results depend on the processing

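In KO against WT, 45 to 51 members were lower under the alternatives, and in KOL against WTL 42 to 48, with Incenp higher in each. The count lower in WTL against WT, 17 in the report, was 40 and 42 with limma on log2(TPM + 1) and log2(TPM + 0.1), 42 with total-count scaling and 48 with no fold cutoff. Shares of all tested genes under these settings are not given here. In KOL against KO the count higher, 1 in the report, was 0 in both limma fits, with total-count scaling and with the correction for gene length, where Pttg1 kept an adjusted p under 0.05 and lay below the fold cutoff. The interaction, 19 lower and 1 higher in the report, was the least stable. Its lower count was 6 and 7 in limma and 9 with total-count scaling, and 8 to 21 when leaving out 1 library. Its higher count was 2 with DESeq2, its size factors, at least 10 counts in every library and the correction for length, 3 and 2 in limma, 4 with total-count scaling, 3 without WTL replicate 1 and KOL replicate 2 together, and 1 to 2 when leaving out 1 library. Bub3 in KOL against KO turned to -0.40 and -0.41 in limma and -0.28 with total-count scaling, and the interaction of Espl1 to 0.16 and 0.02 in limma. Pttg1 in KOL against WTL ran from -0.18 to 0.06 when leaving out 1 library. The cause was not tested. With the replicate block, 49 members were lower in KO against WT, 45 in KOL against WTL, 18 in WTL against WT and 34 in KOL against KO, and 15 in the interaction. Same-numbered libraries did not deviate together (r = -0.286 to 0.112), so the numbers were not taken to pair the samples. Under total-count scaling the median of all genes was -0.12 in KO against WT, -0.53 in WTL against WT and -0.40 in KOL against KO.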
